A study of Mus musculus with 9 samples.

Results

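The genes described here encode the cytoplasmic actins and the proteins that bind to actin in mouse myocytes, the differentiated muscle cells that fuse into myotubes. The list holds 56 genes, sorted into 11 broad classes named for the role of many of their proteins. They were chosen by symbol with earlier results of these data known, so their share of calls is a description. A probe set named for the gene was found for 55 of the 56 among the 24704 probe sets tested. No probe set here was named for *Actg1*, the gene of γ-actin, so it has no value. Satellite cell-derived primary myoblasts of C57BL/6 mice (C57Bl6/N in the methods) were plated on Matrigel at 30000 cells per cm2, differentiated for 24 h, and then either left as controls or treated for another 24 h. TGFβ1 was given as recombinant protein at 20 ng/ml, and ITD-1, a compound that clears type II TGFβ receptors from cells, was given at a dose that the labels state as 5 mM and the methods as 5 µM. The labels name no vehicle for the controls. Each group had 3 arrays, which the study calls biologically independent experiments, and the labels do not say which cultures or animals they came from. Each p-value therefore weighs a difference between groups against the variation between these arrays only.

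Actin monomers assemble into filaments that cells continually build and take apart. Profilins, thymosins, twinfilins and cyclase-associated proteins hold the monomers, cappers close the filament ends, cofilins and gelsolin cut the filaments, and α-actinins, filamins and fascin tie them into bundles and networks. Tropomyosins and calponins coat them, myosins of the non-muscle II class pull on them, and ezrin, radixin and moesin (the ERM proteins) tether them to the membrane. In muscle cells this cytoplasmic set exists beside the actin of the sarcomere, and actin-based protrusions are known to act when myocytes fuse. Many of its genes are known targets of serum response factor, whose cofactors of the MRTF family leave actin monomers as filaments grow.

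With TGFβ1 the larger share of the changed members rose. Of the 55 measured, 22 were higher than in control myocytes (40.0%) and 2 were lower (3.64%), while 3.65% of all tested probe sets were called higher and 2.78% lower. Called means a Benjamini-Hochberg adjusted p under 0.05 over all 24704 probe sets by limma, two-sided. The members' log2 differences ran from -0.53 to 1.33 with a median of 0.21, against a median of -0.014 over all tested probe sets, and a log2 difference of 1 means a 2-fold change. With ITD-1 the calls pointed down, with 6 members lower than control (10.9%), where 0.575% of all probe sets were lower. By limma 0 members were higher with ITD-1, with 1 at an unadjusted p under 0.05 and 0 by the analysis of variance with no moderation, and 0.0607% of all probe sets were higher. The median of the members was -0.13 with ITD-1, against 0.006 over all probe sets, and the range was -1.04 to 0.20. Both comparisons use the same 3 control arrays, so their values are set side by side below and are not independent of each other. Between the 2 treated groups, 27 members were higher with TGFβ1 than under ITD-1 (49.1%) and 5 were lower (9.09%), against 5.92% and 4.26% of all probe sets.

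Because 52 of the 55 members had a mean level at or above the median of all probe sets, the brighter 12352 probe sets were counted as well. There TGFβ1 gave 6.92% higher and 5.36% lower, and ITD-1 gave 1.15% lower. Between the treatments 11.1% were higher with TGFβ1 and 7.87% lower, so the members' 9.09% lower was near the share of bright probe sets. Counted by arrays alone, 28 of the 55 members had all 3 TGFβ1 arrays above all 3 control arrays and 7 had them all below. Over all probe sets the shares were 10.4% and 10.1%, so the members' share below was near that of all probe sets. With ITD-1, 1 member had its arrays all above control and 21 had them all below, against 5.22% and 5.92% of all probe sets.

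Array medians lay between 4.09 and 4.19 on the log2 scale, and arrays of 1 group correlated at 0.992 to 0.996 over probe sets, against 0.983 to 0.995 between groups. The labelled cell type was checked by its markers. All 5 satellite cell and myoblast markers and all 7 myocyte markers lay at or above the median level, and the mean of the myocyte markers was 10.58 to 10.69 in control, 10.64 to 10.68 with TGFβ1 and 10.63 to 10.74 with ITD-1. Of the satellite cell and myoblast markers 0 were called against control by limma, where 0 with TGFβ1 and 2 with ITD-1 had an unadjusted p under 0.05. These 2 were *Cdh15*, the gene of M-cadherin, at 0.32 (adjusted p = 0.063), and *Myf5*, a myogenic transcription factor, at -0.34 (adjusted p = 0.46). *Cdh15* was lower with TGFβ1 than under ITD-1 (log2 difference -0.39, adjusted p = 0.0022 by limma). Within the myocyte list *Ckm*, the gene of muscle creatine kinase, rose by 0.93 with TGFβ1 (adjusted p = 0.00051 by limma), while *Myh3*, embryonic myosin heavy chain, fell by 0.31 (adjusted p = 0.022 by limma) and *Actn2*, the sarcomeric α-actinin, fell by 0.32 (adjusted p = 0.043 by limma), and the other 4 were not called. Of 5 fibroblast, 5 endothelial and 2 Schwann cell markers, 0 reached the median level, and 2 of 5 leukocyte markers did, of which list *Itgam* fell by 0.74 with TGFβ1 (adjusted p = 0.0085 by limma). Of 5 smooth muscle and pericyte markers 3 reached it, and the mean of that list was 4.80 to 5.01 in control, 4.74 to 4.75 with TGFβ1 and 4.49 to 4.73 with ITD-1. *Rgs5*, a pericyte marker, fell by 1.28 with TGFβ1 (adjusted p = 0.00018 by limma) and by 1.02 under ITD-1 (adjusted p = 0.0064 by limma), and the other 4 were not called, with *Pdgfrb* at 0.39 (adjusted p = 0.22) and *Cspg4* at 0.17 (adjusted p = 0.54) with TGFβ1. The part of these markers in the results below was not tested. In RNA from whole cultures, fewer cells of a type and less RNA per cell cannot be told apart.

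**Figure D1:**
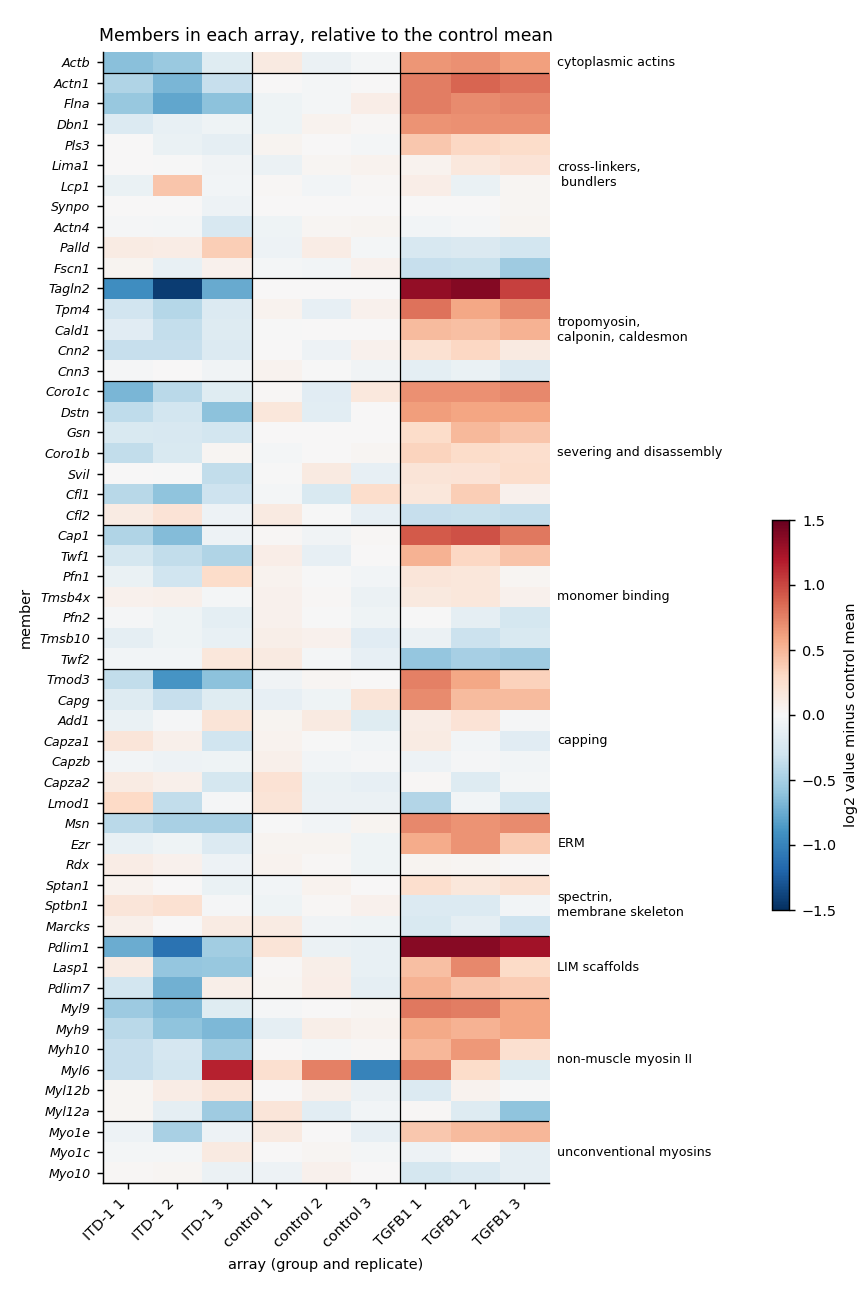
Heat map of the 55 measured members (rows, by class) in the 9 arrays (columns), as log2 value minus the mean of the 3 control arrays. The TGFβ1 columns are red for most members of the tropomyosin, severing and LIM classes and blue for few, with *Pdlim1* (1.33) and *Tagln2* (1.24) the darkest, and *Myl6* scatters within every group.

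Serum response factor binds the CArG box, a motif of 10 bases whose pattern is the same on both strands. RefSeq promoter windows (GRCm38.p6, 250 bases before to 50 after a start site) were matched by symbol for 49 members, 11 of them with more than 1 window, and 7 members had none. A CArG box lay in a window of 6 of the 49 members (12.2%), against 310 of 18383 tested genes with a window (1.69%). Among members called higher with TGFβ1 it was 2 of 20 (10%) and among measured members not called higher 3 of 28 (10.7%). In these arrays *Srf*, the gene of the factor, had -0.11 with TGFβ1 (adjusted p = 0.70), and the cofactor genes *Mrtfa* and *Mrtfb* had 0.06 (adjusted p = 0.87) and 0.13 (adjusted p = 0.41), so 0 of the 3 were called by limma, and 0 had an unadjusted p under 0.05. The windows are shown because this factor is a known regulator of actin genes, and 3 are printed whole, 5′ to 3′ on the gene's strand, with the box in capitals. Calls named beside the windows and boxes are those of TGFβ1 against control.
*Myl9*, higher with TGFβ1 (chr2:156775214-156775513, plus strand): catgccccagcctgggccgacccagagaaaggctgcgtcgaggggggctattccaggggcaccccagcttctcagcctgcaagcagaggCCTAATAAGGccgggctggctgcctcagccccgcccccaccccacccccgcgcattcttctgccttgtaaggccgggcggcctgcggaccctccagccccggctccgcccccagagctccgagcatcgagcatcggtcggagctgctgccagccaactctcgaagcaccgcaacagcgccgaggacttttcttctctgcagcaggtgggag
*Myo1e*, higher with TGFβ1 (chr9:70207100-70207399, plus strand): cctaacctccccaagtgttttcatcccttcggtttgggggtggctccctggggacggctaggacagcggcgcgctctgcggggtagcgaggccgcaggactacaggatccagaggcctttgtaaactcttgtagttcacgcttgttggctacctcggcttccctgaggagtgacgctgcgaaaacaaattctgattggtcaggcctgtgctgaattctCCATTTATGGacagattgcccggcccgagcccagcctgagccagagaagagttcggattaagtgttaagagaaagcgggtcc
*Cnn2*, not called (chr10:79988350-79988649, plus strand): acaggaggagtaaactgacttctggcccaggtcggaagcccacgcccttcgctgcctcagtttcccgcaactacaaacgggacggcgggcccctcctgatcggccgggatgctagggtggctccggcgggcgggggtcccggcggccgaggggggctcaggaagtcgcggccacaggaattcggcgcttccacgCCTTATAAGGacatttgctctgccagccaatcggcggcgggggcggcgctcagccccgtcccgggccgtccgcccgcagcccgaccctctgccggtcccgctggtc
Relative to the start site the box ran from -161 to -152 in *Myl9*, from -32 to -23 in *Myo1e* and from -56 to -47 in *Cnn2*. The boxes of the other 3 are given alone.
*Actg1*, not measured: CCATATATGG
*Lima1*, not called: CCTTATAAGG
*Myl6*, not called: CCTTATATGG
A match is a description of these letters and not a binding site. CAGAC, a short motif bound by SMAD proteins, was in a window of 42.9% of members and 52.4% of tested genes, and GGAATG, bound by TEAD factors, in 24.5% and 15.6%, each counted on both strands.

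*Actb* encodes β-actin, the main cytoplasmic actin. Its log2 value was 10.06, 9.84 and 9.90 in the control arrays, 10.59, 10.61 and 10.55 with TGFβ1, and 9.30, 9.37 and 9.75 with ITD-1. The 3 groups did not overlap, with TGFβ1 highest and ITD-1 lowest. *Actb* rose by 0.65 with TGFβ1, or 1.57-fold (adjusted p = 0.0077 by limma, standard error (SE) 0.11). With ITD-1 its difference was -0.46 (95% interval -0.72 to -0.20), which was not called at an adjusted p of 0.19. Between the treatments it was 1.11 higher with TGFβ1 (adjusted p = 0.00018 by limma). Whether its probes also bind transcripts of other actin genes was not tested.

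Among the 10 cross-linkers and bundlers, 4 were higher and 1 was lower with TGFβ1. *Actn1*, which encodes the α-actinin of stress fibres and focal adhesions, gave 9.46, 9.42 and 9.46 in control, 10.22, 10.32 and 10.27 with TGFβ1 and 9.00, 8.76 and 9.10 with ITD-1. The groups were separate, with control in the middle. It rose by 0.82 with TGFβ1, or 1.77-fold (SE 0.09, adjusted p = 0.00043 by limma), and fell by 0.49 under ITD-1 (SE 0.09, adjusted p = 0.047 by limma). *Flna* encodes filamin A, which joins filaments at wide angles and links them to integrins. Its arrays read 7.85, 7.88 and 8.01 in control, 8.68, 8.62 and 8.64 with TGFβ1 and 7.34, 7.13 and 7.29 with ITD-1, again without overlap. *Flna* rose 1.66-fold with TGFβ1 (log2 difference 0.73, SE 0.08, adjusted p = 0.00034 by limma) and fell by 0.66 under ITD-1 (SE 0.08, adjusted p = 0.0065 by limma).

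*Dbn1*, the gene of drebrin, which binds along filament sides, had 9.25, 9.36 and 9.33 in control, 9.98, 10 and 10 with TGFβ1 and 9.10, 9.20 and 9.24 with ITD-1. The TGFβ1 arrays lay well apart, and the highest ITD-1 array ended just below the lowest control array. The rise with TGFβ1 was 0.68 (SE 0.06, adjusted p = 2e-04 by limma), while the difference with ITD-1 was -0.13 (adjusted p = 0.67). *Pls3*, which encodes the bundler plastin 3, read 8.33, 8.30 and 8.26 in control, 8.70, 8.60 and 8.57 with TGFβ1 and 8.29, 8.19 and 8.16 with ITD-1, where the ITD-1 and control arrays overlapped. It rose by 0.33 with TGFβ1 (adjusted p = 0.016 by limma).

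*Fscn1* went the other way. It encodes fascin, the bundler of filopodia, and read 9.25, 9.24 and 9.34 in control, 8.93, 8.95 and 8.75 with TGFβ1 and 9.32, 9.17 and 9.35 with ITD-1. The TGFβ1 arrays were below all others and the ITD-1 arrays overlapped control. It fell by 0.40 with TGFβ1 (SE 0.08, adjusted p = 0.014 by limma), and its difference with ITD-1 was 0.00 (95% interval -0.18 to 0.18). *Palld*, which encodes the α-actinin partner palladin, was not called against control, with -0.24 for TGFβ1 (adjusted p = 0.17) and 0.20 for ITD-1 (adjusted p = 0.61). Set against ITD-1, *Palld* was lower with TGFβ1 (log2 difference -0.44, adjusted p = 0.0083 by limma). The other 4, *Actn4*, *Lima1*, *Lcp1* and *Synpo*, had differences between -0.01 and 0.14 with TGFβ1 and none was called. *Lcp1* and *Synpo* lay below the median level of all probe sets, and the 3 control arrays of *Synpo* held the same deposited value.

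**Figure D2:**
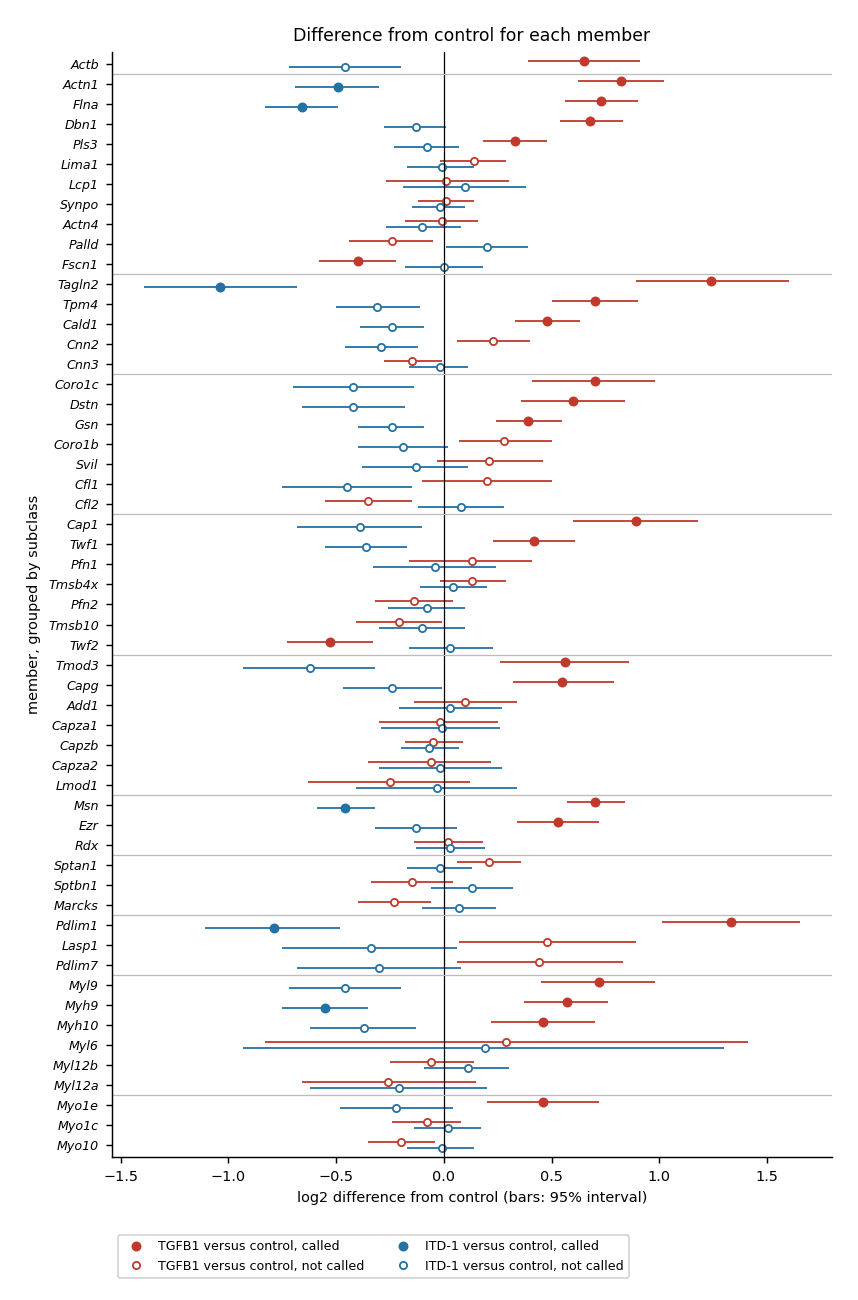
Log2 difference from control (x axis) for each of the 55 members (y axis, by class) with TGFβ1 (red) and ITD-1 (blue), with bars for the 95% interval of the limma fit and filled points for calls. The red points of *Pdlim1* (1.33) and *Tagln2* (1.24) lie farthest right, *Twf2* (-0.53) and *Fscn1* (-0.40) are the 2 filled red points left of 0, and the 6 filled blue points all lie left of 0.

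In the tropomyosin, calponin and caldesmon family 3 of 5 members rose with TGFβ1. *Tagln2* encodes transgelin 2, a small calponin-like protein that gels actin in non-muscle cells. It read 8.41, 8.47 and 8.12 with TGFβ1 and 6.16, 5.67 and 6.33 with ITD-1, and each of the 3 control arrays held 7.09. The control values were identical to all deposited digits, as they were for *Gsn* and *Synpo* and for 1.76% of tested probe sets, so they give no spread of their own. *Tagln2* rose 2.37-fold with TGFβ1 (log2 difference 1.24, SE 0.16, adjusted p = 0.0012 by limma) and fell by 1.04 under ITD-1, or 2.05-fold (SE 0.16, adjusted p = 0.022 by limma). Between the treatments it differed 4.86-fold (log2 difference 2.28), the largest such difference among the members.

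*Tpm4*, a tropomyosin of the cytoplasmic filaments, had 6.45, 6.28 and 6.46 in control, 7.21, 6.98 and 7.12 with TGFβ1 and 6.11, 5.97 and 6.19 with ITD-1. All 3 groups were separate. The rise with TGFβ1 was 0.70 (SE 0.09, adjusted p = 0.0011 by limma), and the difference with ITD-1 was -0.31 (adjusted p = 0.29). *Cald1*, the gene of caldesmon, which restrains myosin on actin, read 9.12, 9.13 and 9.13 in control, 9.60, 9.58 and 9.65 with TGFβ1 and 8.96, 8.77 and 8.94 with ITD-1. The groups again did not overlap, and *Cald1* rose by 0.48 (SE 0.07, adjusted p = 0.0022 by limma) and had -0.24 under ITD-1 (adjusted p = 0.27). *Cnn2*, a non-muscle calponin whose promoter is printed above, had its arrays in the same order but was not called against control. Its differences were 0.23 with TGFβ1 (adjusted p = 0.14 by limma) and -0.29 under ITD-1 (adjusted p = 0.21 by limma). With array weights *Cnn2* was called higher with TGFβ1 than in control. It was 0.52 higher with TGFβ1 than under ITD-1 (adjusted p = 0.0015 by limma). *Cnn3* had -0.15 with TGFβ1 (adjusted p = 0.26).

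Of the 3 ERM genes, *Msn* and *Ezr* rose with TGFβ1 and *Rdx* was not called. *Msn* encodes moesin, and its arrays read 10.62, 10.59 and 10.67 in control, 11.35, 11.30 and 11.34 with TGFβ1 and 10.22, 10.14 and 10.14 with ITD-1. The spread within groups was small beside the gaps between them, with standard deviations of 0.03 to 0.04 (n = 3). *Msn* rose 1.63-fold with TGFβ1 (log2 difference 0.70, SE 0.06, adjusted p = 0.00011 by limma) and fell by 0.46 under ITD-1 (adjusted p = 0.012 by limma). *Ezr*, the gene of ezrin, had 6.44, 6.44 and 6.33 in control, 6.96, 7.07 and 6.78 with TGFβ1 and 6.29, 6.34 and 6.20 with ITD-1. Its ITD-1 and control arrays overlapped. It rose by 0.53 with TGFβ1 (SE 0.08, adjusted p = 0.0044 by limma) and had -0.13 under ITD-1 (adjusted p = 0.79). *Rdx*, the gene of radixin, had 0.02 with TGFβ1 (95% interval -0.14 to 0.18) and 0.03 under ITD-1 (95% interval -0.13 to 0.19).

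Of the 7 genes placed in the class of severing and disassembly, *Coro1c*, *Dstn* and *Gsn* rose with TGFβ1. *Coro1c* encodes coronin 1C, which works with cofilin and the Arp2/3 complex. It read 8.58, 8.39 and 8.72 in control, 9.25, 9.24 and 9.28 with TGFβ1 and 7.88, 8.16 and 8.38 with ITD-1, where the highest ITD-1 array lay just below the lowest control array. The rise with TGFβ1 was 0.70 (SE 0.13, adjusted p = 0.0088 by limma), and under ITD-1 the difference was -0.42 (adjusted p = 0.31). *Dstn*, the gene of destrin, a relative of cofilin, had 7.78, 7.45 and 7.61 in control, 8.24, 8.20 and 8.20 with TGFβ1 and 7.23, 7.34 and 7.00 with ITD-1. Its 3 groups were separate, and it rose by 0.60 (SE 0.11, adjusted p = 0.0078 by limma) and had -0.42 under ITD-1 (adjusted p = 0.19).

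*Gsn*, the gene of gelsolin, which severs and then caps filaments, held 8.51 in each control array, 8.78, 9.00 and 8.93 with TGFβ1 and 8.28, 8.27 and 8.24 with ITD-1. No group overlapped another, and the control values were again identical. *Gsn* rose by 0.39 with TGFβ1 (SE 0.07, adjusted p = 0.0076 by limma) and had -0.24 under ITD-1 (adjusted p = 0.28). The 2 cofilin genes were not called against control, although *Cfl2* was called lower with TGFβ1 under 8 of the 17 alternatives (the filter at the median level, trend and robust eBayes, a fit of only the 2 groups, array weights, the replicate block, and without control replicate 3 or ITD-1 replicate 2 or 3). *Cfl2*, the muscle-type cofilin, had all TGFβ1 arrays below control and a difference of -0.35 that narrowly missed the threshold (adjusted p = 0.053), and *Cfl1*, the non-muscle cofilin, had 0.20 with TGFβ1 (adjusted p = 0.57) and -0.45 under ITD-1 (adjusted p = 0.31). Between the treatments *Cfl1* was 0.64 higher with TGFβ1 (adjusted p = 0.012 by limma) and *Cfl2* lower, at -0.43 (adjusted p = 0.013 by limma). The first call was lost by the analysis of variance with no moderation and without TGFβ1 replicate 2 or ITD-1 replicate 2, and the second without ITD-1 replicate 1 or 2. *Coro1b* and *Svil*, the gene of supervillin, had 0.28 and 0.21 with TGFβ1 and were not called against control. *Coro1b* was called higher against control in a fit of only the 2 groups, with array weights and without ITD-1 replicate 3. Set against ITD-1, *Coro1b* was 0.48 higher with TGFβ1 (adjusted p = 0.010 by limma), and that call held under every alternative. The *Cfl1* probe set read low, from 3.84 to 4.81 over the 9 arrays, near the array medians and near the fibroblast and endothelial markers, whose mean levels ran up to 4.02.

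Of the 7 monomer-binding genes, *Cap1* and *Twf1* rose with TGFβ1 and *Twf2* fell. *Cap1* encodes the cyclase-associated protein that recharges monomers for assembly. It had 8.86, 8.79 and 8.86 in control, 9.76, 9.80 and 9.63 with TGFβ1 and 8.39, 8.19 and 8.76 with ITD-1. The TGFβ1 arrays stood well above control, and the highest ITD-1 array came close to the lowest control array. *Cap1* rose 1.85-fold with TGFβ1 (log2 difference 0.89, SE 0.13, adjusted p = 0.0024 by limma) and had -0.39 under ITD-1 (adjusted p = 0.40). *Twf1* and *Twf2* encode the twinfilins, which bind monomers and filament ends. *Twf1* read 8.32, 8.10 and 8.23 in control, 8.74, 8.53 and 8.65 with TGFβ1 and 7.96, 7.85 and 7.77 with ITD-1, without overlap. *Twf2* read 8.93, 8.77 and 8.68 in control, 8.22, 8.30 and 8.27 with TGFβ1 and 8.76, 8.76 and 8.97 with ITD-1, with only the TGFβ1 arrays apart. *Twf1* rose by 0.42 (adjusted p = 0.018 by limma) while *Twf2* fell by 0.53 (SE 0.09, adjusted p = 0.0053 by limma), and under ITD-1 they had -0.36 (adjusted p = 0.17) and 0.03 (adjusted p = 0.96). The profilins *Pfn1* and *Pfn2* and the thymosins *Tmsb4x* and *Tmsb10* had -0.21 to 0.13 with TGFβ1 and were not called.

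Genes placed in the capping class were mostly not called. *Tmod3*, the tropomodulin of non-muscle cells that caps the slow-growing end, had 5.99, 6.07 and 6.05 in control, 6.79, 6.62 and 6.39 with TGFβ1 and 5.67, 5.16 and 5.42 with ITD-1. The groups were separate, and the treated arrays spread more than the control arrays, with standard deviations of 0.20 and 0.26 against 0.04 (n = 3 each). *Tmod3* rose by 0.56 with TGFβ1 (SE 0.13, adjusted p = 0.037 by limma) and had -0.62 under ITD-1 (adjusted p = 0.11), the largest difference with ITD-1 that was not called. *Capg*, which encodes a gelsolin relative that caps without severing, read 4.99, 5.04 and 5.30 in control, 5.82, 5.59 and 5.58 with TGFβ1 and 4.92, 4.76 and 4.93 with ITD-1. It rose by 0.55 (SE 0.10, adjusted p = 0.011 by limma) and had -0.24 under ITD-1 (adjusted p = 0.61), its arrays again in 3 separate groups. The capping protein subunits *Capza1*, *Capza2* and *Capzb* had -0.06 to -0.02 with TGFβ1, *Add1*, an adducin, had 0.10 and *Lmod1*, a leiomodin, had -0.25. None of these 5 was called in any comparison.

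**Figure D3:**
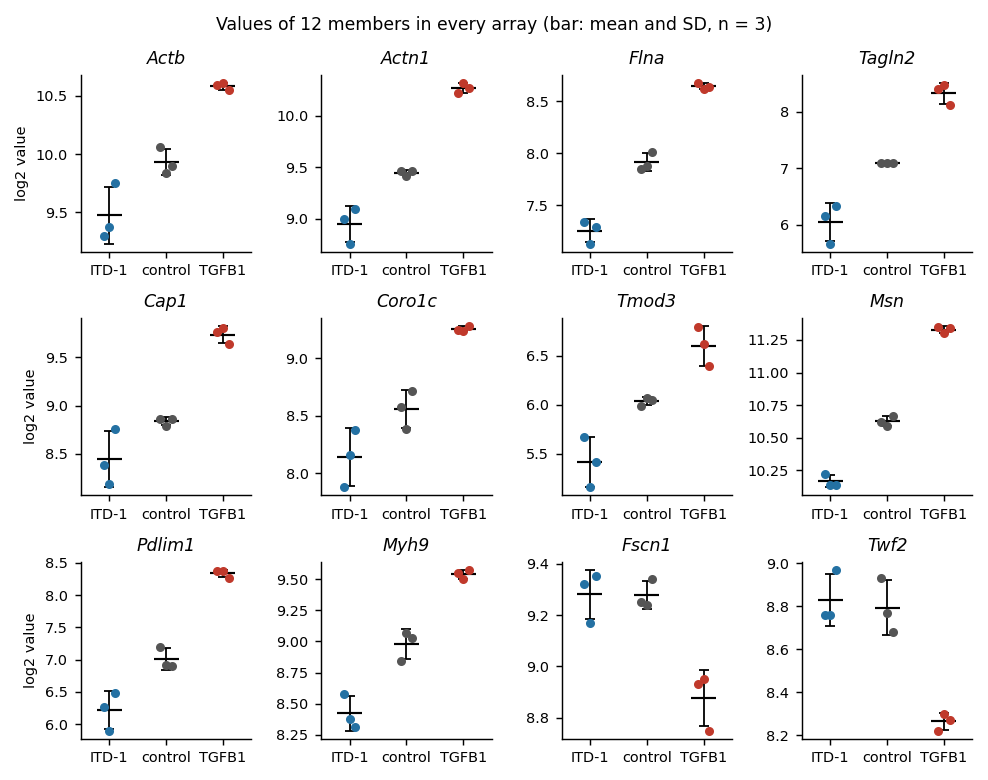
Log2 value (y axis, its own scale in each panel) of 12 members in every array of the 3 groups (x axis), with a bar for the mean and the standard deviation (n = 3). In 10 panels TGFβ1 is highest and ITD-1 lowest, and in *Fscn1* (-0.40) and *Twf2* (-0.53) the TGFβ1 arrays lie below both other groups, which overlap.

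Among the 3 LIM scaffolds, which bring signaling proteins to actin, *Pdlim1* had the largest rise of all members. It encodes a PDZ and LIM protein that binds α-actinin on stress fibres, and read 7.20, 6.92 and 6.90 in control, 8.37, 8.37 and 8.27 with TGFβ1 and 6.26, 5.90 and 6.49 with ITD-1. The 3 groups were far apart. *Pdlim1* rose 2.51-fold with TGFβ1 (log2 difference 1.33, SE 0.14, adjusted p = 0.00038 by limma) and fell by 0.79 under ITD-1, or 1.73-fold (SE 0.14, adjusted p = 0.045 by limma). *Lasp1* and *Pdlim7* had all TGFβ1 arrays above control with differences of 0.48 and 0.44, each at an adjusted p of 0.21. *Lasp1* was called higher against control without ITD-1 replicate 1, and *Pdlim7* in a fit of only the 2 groups. Against ITD-1 both were higher with TGFβ1, by 0.83 (adjusted p = 0.017 by limma) and 0.75 (adjusted p = 0.020 by limma). Both calls were lost by the analysis of variance with no moderation, in a fit of only the 2 groups and without TGFβ1 replicate 1 or 2. That of *Lasp1* was also lost without ITD-1 replicate 2 or 3, and that of *Pdlim7* without ITD-1 replicate 1.

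The 6 genes of non-muscle myosin II divided evenly, with 3 higher with TGFβ1 and 3 not called. *Myh9* encodes the heavy chain of non-muscle myosin IIA and had 8.84, 9.07 and 9.03 in control, 9.55, 9.50 and 9.57 with TGFβ1 and 8.58, 8.38 and 8.31 with ITD-1. Its groups were separate, and it rose by 0.57 with TGFβ1 (SE 0.09, adjusted p = 0.0040 by limma) and fell by 0.55 under ITD-1 (SE 0.09, adjusted p = 0.027 by limma). *Myh10*, the IIB heavy chain, read 5.88, 5.84 and 5.89 in control, 6.37, 6.52 and 6.11 with TGFβ1 and 5.53, 5.62 and 5.35 with ITD-1. It was separate in all 3 groups too, with a rise of 0.46 (SE 0.11, adjusted p = 0.033 by limma) and -0.37 under ITD-1 (adjusted p = 0.29).

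*Myl9*, whose promoter is printed above, encodes a regulatory light chain of myosin II. It read 7.81, 7.83 and 7.86 in control, 8.62, 8.60 and 8.42 with TGFβ1 and 7.29, 7.17 and 7.65 with ITD-1, with no overlap. *Myl9* rose 1.64-fold with TGFβ1 (log2 difference 0.72, SE 0.12, adjusted p = 0.0049 by limma) and had -0.46 under ITD-1 (adjusted p = 0.19). The other regulatory light chains, *Myl12a* and *Myl12b*, are close in sequence, and whether their probes tell them apart was not tested. They had -0.26 and -0.06 with TGFβ1 and were not called. The essential light chain *Myl6* could not be judged well, since its control arrays read 4.14, 4.65 and 2.90 and the 95% interval of its TGFβ1 difference was -0.83 to 1.41.

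Of the 3 unconventional myosins, *Myo1e*, a membrane-linked class I myosin with a CArG box in its promoter window, rose with TGFβ1. It had 7.41, 7.29 and 7.16 in control, 7.69, 7.76 and 7.78 with TGFβ1 and 7.20, 6.79 and 7.20 with ITD-1. The TGFβ1 arrays were above control, and the ITD-1 arrays overlapped it. The rise of 0.46 passed narrowly (SE 0.12, adjusted p = 0.047 by limma) and did not pass with the replicate number as a block (adjusted p = 0.070). *Myo10*, the motor of filopodia, had all TGFβ1 arrays below control, at -0.20 (adjusted p = 0.16), and *Myo1c* had -0.08 (adjusted p = 0.70).

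By limma 0 of the 3 spectrin and membrane skeleton genes were called with TGFβ1, although 1 was higher and 1 lower at an unadjusted p under 0.05. *Marcks*, which encodes a substrate of protein kinase C that holds actin at the membrane, had the largest difference. It read 8.22, 8.05 and 8.04 in control, 7.87, 7.97 and 7.79 with TGFβ1 and 8.18, 8.11 and 8.22 with ITD-1. The TGFβ1 arrays were all below control, by -0.23 on average (adjusted p = 0.14), and the ITD-1 arrays overlapped control. *Marcks* was lower with TGFβ1 than under ITD-1 (log2 difference -0.29, adjusted p = 0.036 by limma), a call lost without control replicate 2, without TGFβ1 replicate 1 or 3 and without any single ITD-1 array (adjusted p up to 0.11), and also after median centring (0.11), by the analysis of variance with no moderation (0.055), in a fit of only the 2 groups (0.055) and with the replicate block (0.061). The spectrin genes *Sptan1* and *Sptbn1* had 0.21 (adjusted p = 0.12) and -0.15 (adjusted p = 0.46).

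For 16 pairs of closely related members the difference of their log2 values was taken within each array, where a shift between groups would mean unequal change but not show which gene changed. The 48 comparisons were tested with the exact permutation test, two-sided, which for 3 arrays against 3 cannot give a p below 0.1, and no adjusted p was below 0.15. With TGFβ1 the log ratio of *Twf1* to *Twf2* went from -0.58 ± 0.12 (SD, n = 3) to 0.37 ± 0.15, a change of 0.95 with no overlap of arrays (exact permutation p = 0.1). The ratio of *Myl9* to *Myl12a* changed by 0.97, that of *Pdlim1* to *Pdlim7* by 0.89, that of *Actn1* to *Actn4* by 0.83 and that of *Msn* to *Rdx* by 0.68, also with no overlap. The α-actinin pair went from -0.77 ± 0.07 in control to 0.06 ± 0.06 with TGFβ1 and -1.17 ± 0.28 under ITD-1 (n = 3 each). Smaller differences without overlap were seen for *Cfl1* to *Cfl2* (0.55), *Cnn2* to *Cnn3* (0.38), *Tmsb4x* to *Tmsb10* (0.34) and *Pfn1* to *Pfn2* (0.27). The ratios of *Coro1b* to *Coro1c* (-0.41) and *Cfl1* to *Dstn* (-0.40) were lower with TGFβ1 without overlap. That of *Lcp1* to *Pls3* (-0.32) was lower too, but *Lcp1* lies below the median level and had a difference of 0.01, so this ratio restates the rise of *Pls3*.

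With ITD-1 the change was -0.39 for *Twf1* to *Twf2*, -0.49 for *Pdlim1* to *Pdlim7*, -0.40 for *Actn1* to *Actn4* and -0.49 for *Msn* to *Rdx*, each without overlap with control. *Cfl1* to *Cfl2* (-0.53), *Msn* to *Ezr* (-0.33), *Cnn2* to *Cnn3* (-0.27) and *Tmsb4x* to *Tmsb10* (0.14) did not overlap control either. The probe sets of *Cfl1* and *Tmsb10* read low, at percentiles 53.7 and 52.4 of mean level, which limits their ratios with both treatments. The ratio of *Myl9* to *Myl12a* overlapped control with ITD-1, at -0.25. In the TGFβ1 comparison the arrays overlapped for *Myh9* to *Myh10* (0.10), *Capza1* to *Capza2* (0.04), *Msn* to *Ezr* (0.17) and *Myl12a* to *Myl12b* (-0.20).

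**Figure D4:**
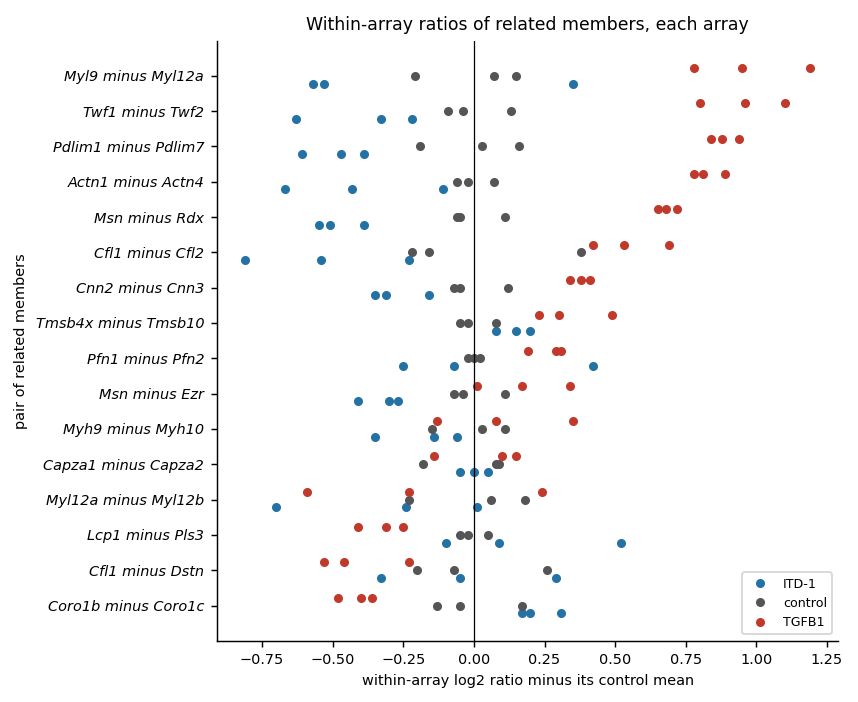
Within-array log2 ratio of 16 pairs of related members (y axis), as each array's value minus the control mean (x axis), with 1 point per array in the control (grey), TGFβ1 (red) and ITD-1 (blue) groups. For 5 pairs at the top the red points stand to the right of all others, with changes of 0.68 to 0.97, and for *Capza1* to *Capza2* the 3 colours overlap.

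Other actin-related genes were counted from 2 lists. Of 39 other non-muscle actin-binding genes, 5 were higher and 1 lower with TGFβ1, with a median of 0.04. Over all tested probe sets 3.65% were higher and 2.78% lower. Among them *Pdlim4*, a relative of *Pdlim1*, rose by 2.00 (adjusted p = 2.5e-05 by limma) and fell by 0.72 under ITD-1 (adjusted p = 0.047 by limma), and *Tes*, which encodes the LIM protein testin, rose by 0.92 (adjusted p = 0.00019 by limma) and fell by 0.64 under ITD-1 (adjusted p = 0.013 by limma). *Myo1d*, a class I myosin, rose by 1.12 (adjusted p = 0.0022 by limma).

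Of the 31 muscle-type paralogs, 2 were higher and 11 lower with TGFβ1 and 18 were not called, with a median of -0.12. The shares of all tested probe sets were 3.65% higher and 2.78% lower. The 2 that rose were *Xirp2*, which encodes an actin-binding repeat protein of striated muscle, by 1.32 (adjusted p = 7.3e-05 by limma) and *Tagln*, the smooth muscle relative of *Tagln2*, by 1.18 (adjusted p = 0.00016 by limma). *Cap2*, the striated muscle relative of *Cap1*, fell by 0.87 (adjusted p = 9.4e-05 by limma), beside the rise of 0.89 for *Cap1*. With ITD-1, *Tagln* fell by 0.63 (adjusted p = 0.034 by limma) and no other of the 31 was called, where 0.575% of all probe sets were lower.

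**Figure D5:**
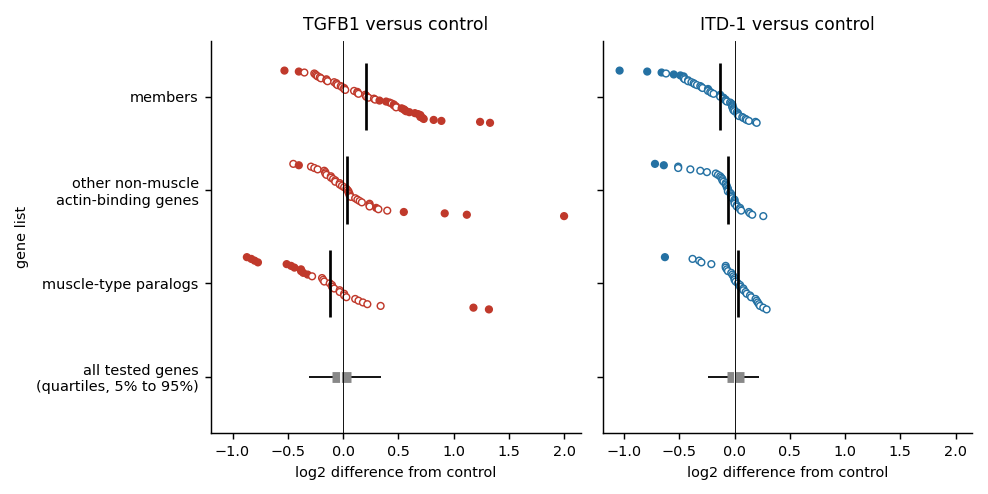
Log2 difference from control (x axis) of each gene in 3 lists (rows) with TGFβ1 (left) and ITD-1 (right), filled where called, with a black bar at the list median and a bottom row for the quartiles and the 5% to 95% range of all tested probe sets. The members have the median farthest right with TGFβ1 (0.21), against 0.04 and -0.12 for the other lists, and the median farthest left under ITD-1 (-0.13).

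Calls differed in how far they rested on single arrays. Of the 24 members called with TGFβ1, 16 were called under each of the 17 alternatives, among them *Actb*, *Actn1*, *Flna*, *Tagln2*, *Pdlim1*, *Msn*, *Cap1*, *Myh9*, *Myl9* and *Twf2*. The other 8 were lost under at least 1. *Myo1e* was lost without any single control or TGFβ1 array and without ITD-1 replicate 1 (adjusted p up to 0.16). *Tmod3* was lost without any single control array, TGFβ1 replicate 1 or 2, or ITD-1 replicate 3 (up to 0.14), and *Myh10* without any single control array, TGFβ1 replicate 1 or 2, or ITD-1 replicate 1 (up to 0.12). *Twf1* was lost without control replicate 2 or 3 or TGFβ1 replicate 1 or 3 (up to 0.078), *Pls3* without control replicate 2 or 3 or TGFβ1 replicate 1 (up to 0.070), *Capg* without control replicate 1 or 2 (up to 0.053) and *Fscn1* without control replicate 3 (0.055). After median centring *Myo1e* (0.068) and *Tmod3* (0.052) were lost, and in a fit of only the 2 groups *Myh10* (0.055). The analysis of variance with no moderation called 16 members higher with TGFβ1 in place of 22, without *Myo1e* (0.15), *Tmod3* (0.14), *Myh10* (0.11), *Twf1* (0.056), *Capg* (0.056) and *Coro1c* (0.058), and *Coro1c* was lost in no other alternative.

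The 6 calls with ITD-1 were less stable, and 0 of them held under every alternative by limma or the analysis of variance. Without control replicate 1, 2 or 3 only *Flna* was still called, and *Msn* had an adjusted p of 0.063, 0.059 and 0.057. *Actn1* and *Pdlim1* were lost without any single array other than ITD-1 replicate 3 (adjusted p up to 0.19 for each). Both were also lost after median centring (0.094 and 0.072), and *Actn1* after cyclic loess (0.056). *Tagln2* was lost without any single control array, TGFβ1 replicate 1 or ITD-1 replicate 1 (up to 0.11), and *Myh9* without any single array other than ITD-1 replicate 1 (up to 0.14). Without ITD-1 replicate 3, which was the highest of its group for *Actb*, *Cap1* and *Myl9*, 8 members were lower, and these 3 were among them (adjusted p = 0.021, 0.042 and 0.026 by limma).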

How the data were processed

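RNA of 9 mouse myocyte cultures was hybridised by the authors to Affymetrix MouseGene 2.0 ST arrays, normalized by RMA (Bioconductor, custom CDF version 22, 1 probe set per Entrez gene), and deposited as log2 values, 1 column per array. Partek is also named in the submitters' processing notes. RMA brings all arrays to a shared distribution, so a shift of all genes at once cannot be seen. The genome build of the probe sets was not given in the sources used here.

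Of 25428 probe sets, 723 carried no single symbol and 1 repeated a symbol, which left 24704. These were fitted in limma 3.58.1 (R 4.3.3; lmFit, eBayes) over all 9 arrays with a mean per group. Two-sided p-values were adjusted by Benjamini-Hochberg over all 24704, with a threshold of 0.05. No filter on low values was used. Array number, 3 per group, limits the precision. The limma fit, but not the other steps, was tested on simulated data.

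Arrays were grouped by their labels. The members and gene lists were chosen with earlier results of these data known. Every array's value was given for the measured actin, for members called against control, and for the member of each class with the largest TGFβ1 difference, and at most 3 genes were named from each other list. A further gene list is not reported here. In residuals, control and TGFβ1 arrays of the same number correlated at 0.138, 0.155 and 0.305, and those of unlike number at -0.217 to 0.102. Control and ITD-1 arrays of the same number correlated at 0.146, -0.0661 and -0.0707. The main fit took no account of these numbers, and they entered only as the replicate block among the alternatives. Alternatives were median centring, cyclic loess, a filter at the median level, trend and robust eBayes, the methods' one-way analysis of variance (also at its own criteria, unadjusted p under 0.05 and 1.5-fold), a fit of only 2 groups, array weights, a replicate block and leaving out each array.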

Additional observations from a re-analysis of the deposited data

How the results depend on the processing

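Under the methods' criteria 12 members were higher and 0 lower with TGFβ1 than in control, and 0 were lower with TGFβ1 than under ITD-1. The count for ITD-1 against control is not given here. In that comparison *Flna* (1.58-fold), *Tagln2* (2.05-fold), *Pdlim1* (1.73-fold) and *Tmod3* (1.54-fold) were lower by more than the 1.5-fold of these criteria. Array weights gave 4 lower with TGFβ1 (*Cfl2*, *Fscn1*, *Myo10*, *Twf2*). Leaving out single arrays gave 16 to 22 higher and 2 to 3 lower with TGFβ1, 1 to 8 lower with ITD-1, and 24 to 27 higher and 3 to 5 lower between the treatments. For ITD-1, 1 member was lower by the analysis of variance with no moderation (*Msn*), 1 in a fit of only the 2 groups (*Flna*) and 2 with the replicate block (*Flna*, *Msn*). With the replicate block 21 members were higher and 3 lower with TGFβ1, as *Myo1e* was lost and *Cfl2* added. The block changed no other call of a named member against control with TGFβ1. The cause of these shifts was not tested.

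The median of the members with TGFβ1 was 0.24 after cyclic loess and 0.20 to 0.27 without single arrays. With ITD-1 it was -0.16 to -0.09 without single arrays. Between the treatments it was 0.44 after the filter at the median level, where 52 members remained, and 0.34 to 0.40 without single arrays. *Fscn1* and *Twf2*, which had no call with ITD-1, changed sign close to 0. *Fscn1* gave 0.00 after cyclic loess and ran from -0.03 to 0.05 without single arrays, with -0.01 and -0.02 among these values. *Twf2* gave -0.01 with array weights and -0.04 to 0.10 without single arrays, with -0.02 among these values. The number of arrays limits what can be seen, and *Myl6*, *Lcp1* and *Synpo* lie below the median level.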
